A study of Mus musculus with 2 samples.

Results

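The macrophage chemokines Ccl24, Ccl6, Ccl9, Pf4, Ccl2, Ccl7, Ccl3, Ccl4, Cxcl2 and Cxcl10 were followed in cells of the mouse peritoneal cavity. They were taken by symbol, are 10 of the 28692 genes in the deposited count tables, and all 10 were present. Cells came from germ-free C57BL/6 mice aged 10 weeks, either wild type (WT) or Xbp1dIEC, mice that lack the endoplasmic reticulum stress factor Xbp1 in intestinal epithelial cells. Each genotype is 1 droplet single-cell library made from equal cell numbers of 4 male mice. The intestinal epithelium was not sampled, so the libraries hold no check of the deletion, and the promoter that drives it is not given in the sources used here. With 1 pooled library per genotype no test between genotypes is possible. Intervals printed after a value are 95% intervals that cover counting error only, not the spread between mice. Those of levels and log2 ratios treat each counted molecule as independent, so they leave out the spread between cells as well.

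Chemokines are small secreted proteins that draw leukocytes along a gradient by binding receptors on the cell surface. The CC family mostly attracts monocytes, eosinophils and lymphocytes, and the CXC family neutrophils and lymphocytes. Resident macrophages make some chemokines at rest, whereas Ccl2, Ccl3, Ccl4, Cxcl2 and Cxcl10 are known as genes switched on by microbial products, cytokines or tissue damage. The peritoneal cavity of a healthy mouse holds mainly large resident macrophages, which depend on the transcription factor Gata6, a smaller set of macrophages and dendritic cells rich in class II, B cells and T cells.

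Cells were sorted in silico by the unique molecular identifiers (UMIs, each marking 1 captured RNA molecule) of marker genes that are not chemokines. After filtering, 6058 of 6204 WT and 6113 of 6246 Xbp1dIEC barcodes remained, and 58 barcodes occurred in both libraries. The gates held 2299 WT and 2237 Xbp1dIEC large macrophages (Gata6, Timd4, Icam2, Garnl3), 258 and 269 Folr2/Retnla macrophages (Folr2, Retnla, Cbr2), 34 and 34 Cd209a cells, 1715 and 1932 B cells, and 326 and 282 T/NK cells. A further 1426 and 1359 cells entered no gate, among them 159 and 118 cells with at least 2 Cd209a UMIs. Large macrophages of the WT library were deeper than those of Xbp1dIEC (median 9809 against 7935 UMIs a cell), so levels are given as CPM, the UMIs of a gene per 1000000 UMIs of all genes in the gate, each library on its own. The kit counts one 3′ end per molecule, so CPM values were compared between genes without division by length.

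The labels were checked on genes that the gates did not use. Large macrophages carried Alox15, Prg4, Cd5l, Fn1 and Vsig4 at a summed 12247 CPM in WT and 12599 in Xbp1dIEC, against 471 and 1357 CPM in the Cd209a cells. Folr2/Retnla macrophages held the same list at 8811 and 9617 CPM, and 200 of 258 WT and 188 of 269 Xbp1dIEC cells of that gate had at least 2 UMIs of the large macrophage gate list. The gate therefore shares much of its expression with large macrophages. Mrc1, Lyve1, Ccl8, Igf1 and Gas6 summed to 240 and 342 CPM there, against 104 and 114 CPM in large macrophages. Cd209a cells were rich in the list of Ear2, the class II genes H2-Ab1, H2-Aa and Cd74, Ccr2 and Flt3, at 77987 and 69098 CPM.

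The CC genes other than Ccl24 are on chromosome 11 and lie in close pairs (GRCm38, GENCODE vM21). Ccl2 and Ccl7 are 8.26 kb apart, Ccl9 and Ccl6 9.25 kb, and Ccl3 and Ccl4 13.2 kb, with 1525 kb between Ccl7 and Ccl9 and 54.8 kb between Ccl6 and Ccl3. On chromosome 5, Pf4 and Cxcl2 are 130 kb apart and Cxcl10 lies 1441 kb from Cxcl2, while Ccl24 lies alone, 43221 kb from Cxcl10. Ccl6 spans chr11:83587882-83593087 and Ccl9 chr11:83572919-83578636, both on the minus strand with 4 exons. Pf4 spans chr5:90772435-90773383 on the plus strand with 3 exons, and Ccl24 chr5:135569937-135573049 on the minus strand with 3 exons. No member overlaps another gene on its own strand; Ccl6 overlaps E230016K23Rik, Ccl2 overlaps Gm17268 and Cxcl10 overlaps Art3 on the other strand. RefSeq promoters on GRCm38.p6 were matched for 6 of the 10 members, and the bases before the start are shown for 5 of them, 5′ to 3′ on the gene's strand. Capitals mark matches, on either strand, to the Ets-type string GGAAGTG, the NF-kB consensus, the interferon response string (GAAA, any 2 bases and GAAA again), the AP-1 string TGAGTCA or the TATA string TATAAA. The first set holds the abundant Ccl6 (chr11:83593088-83593337, minus), Ccl9 (chr11:83578637-83578886, minus) and Pf4 (chr5:90772185-90772434, plus).
Ccl6: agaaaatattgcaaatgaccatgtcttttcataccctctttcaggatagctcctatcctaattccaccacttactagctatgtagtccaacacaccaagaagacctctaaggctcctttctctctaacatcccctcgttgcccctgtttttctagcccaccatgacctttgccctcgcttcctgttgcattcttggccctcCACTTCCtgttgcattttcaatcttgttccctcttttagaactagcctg
Ccl9: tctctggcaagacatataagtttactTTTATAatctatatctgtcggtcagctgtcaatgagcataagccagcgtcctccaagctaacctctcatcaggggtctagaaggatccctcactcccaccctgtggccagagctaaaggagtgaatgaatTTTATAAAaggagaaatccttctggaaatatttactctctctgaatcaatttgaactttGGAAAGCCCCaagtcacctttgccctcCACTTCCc
Pf4: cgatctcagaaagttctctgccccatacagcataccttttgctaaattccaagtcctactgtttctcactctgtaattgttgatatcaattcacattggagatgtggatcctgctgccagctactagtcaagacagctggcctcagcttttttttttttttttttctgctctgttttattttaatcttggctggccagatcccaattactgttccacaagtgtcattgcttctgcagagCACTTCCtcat
Each of these 3 promoters holds GGAAGTG on the minus strand of the gene, read as CACTTCC, within 49 bases of the start in Ccl6, 8 in Ccl9 and 11 in Pf4. The string occurs in 8.55% of all 32851 promoters of the same length, and it was picked after the sequences had been read, so its presence is a description. In Ccl9 the TATA matches at 94 to 87 bases before the start overlap each other, and the NF-kB match lies at 35 to 26 bases. The second set holds the CXC genes known for induction, Cxcl2 (chr5:90903649-90903870, plus, the last 28 bases before the RefSeq start left out because they lie inside the GENCODE gene) and Cxcl10 (chr5:92348890-92349139, minus).
Cxcl2: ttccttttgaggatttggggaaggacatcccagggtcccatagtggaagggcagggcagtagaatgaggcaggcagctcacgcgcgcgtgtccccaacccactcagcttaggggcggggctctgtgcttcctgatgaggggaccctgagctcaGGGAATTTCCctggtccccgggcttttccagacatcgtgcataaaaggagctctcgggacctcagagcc
Cxcl10: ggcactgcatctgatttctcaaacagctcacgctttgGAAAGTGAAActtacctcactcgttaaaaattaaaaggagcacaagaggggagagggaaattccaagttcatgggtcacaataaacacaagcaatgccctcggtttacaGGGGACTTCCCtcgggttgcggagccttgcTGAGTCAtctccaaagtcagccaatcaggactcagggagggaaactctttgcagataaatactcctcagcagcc
Cxcl2 has an NF-kB match at 97 to 88 bases before its start. Cxcl10 has overlapping NF-kB matches at 104 to 94 bases, an interferon response match at 213 to 204 and an AP-1 match at 74 to 68. NF-kB matches occur in 1643 of the 32851 promoters, interferon response strings in 2.98%, AP-1 strings in 4.46% and TATA strings in 12.4%. None of these letters occurred in the 250 bases before Ccl3.

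Of the 10 chemokines, 4 were abundant in resting macrophages and the others were rare. Pf4, the CXC chemokine best known from platelet granules, was the highest in large macrophages at 7498 CPM in WT and 5611 CPM in Xbp1dIEC. It was followed by Ccl6 (2269 and 1629 CPM), by Ccl24, which attracts eosinophils through Ccr3 (957 and 1101 CPM), and by Ccl9, a ligand of Ccr1 (769 and 686 CPM), and the order was the same in both libraries. Cxcl2, which attracts neutrophils through Cxcr2, was at 36.5 and 31.7 CPM. Ccl3 (1.39 and 1.18 CPM), Ccl4 (0.87 and 0.28 CPM) and Ccl2 (0.39 and 0.45 CPM) were near the limit of detection. Ccl7 had 0 UMIs in WT and 1 in Xbp1dIEC large macrophages, and Cxcl10 had 0 in both, where 3 UMIs would be 0.13 and 0.17 CPM.

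**Figure D1:**
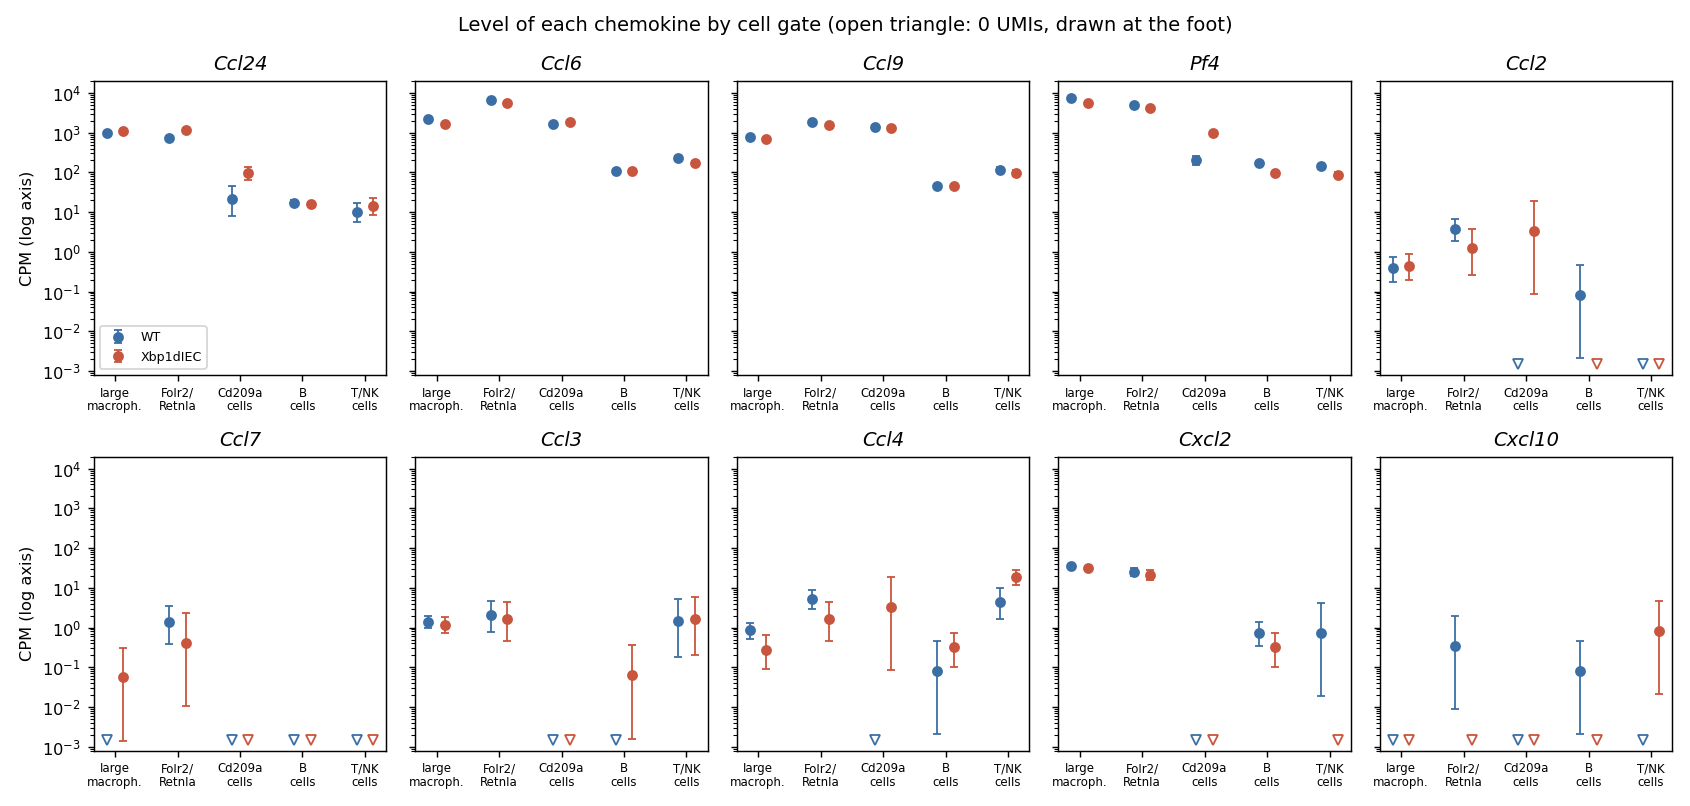
Level of each of the 10 chemokines (CPM, log axis) in 5 cell gates, with WT in blue and Xbp1dIEC in red; bars are exact Poisson 95% intervals, which cover counting error only. Ccl24, Ccl6, Ccl9 and Pf4 lie between 686 and 7498 CPM in the macrophage gates, and Ccl2, Ccl7, Ccl3, Ccl4 and Cxcl10 stay under 20 CPM in every gate.

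The Folr2/Retnla macrophages had a different order, led by Ccl6. Ccl6 stood at 6698 CPM in WT and 5629 CPM in Xbp1dIEC, 2.95-fold and 3.45-fold above the large macrophages of the same library (log2 ratio 1.56, 1.54 to 1.59, and 1.79, 1.76 to 1.82). Ccl9 stood at 1856 and 1565 CPM, 2.41-fold and 2.28-fold above them. Pf4 went the other way, at 4923 and 4278 CPM, 1.52-fold and 1.31-fold below the large macrophages. In Xbp1dIEC the Pf4 difference changed sign, to 0.31 on the log2 scale, when cells were thinned to 2000 UMIs before gating, which left 36 cells in the gate. Ccl24 was 1.28-fold below the large macrophages in WT and 1.04-fold above them in Xbp1dIEC, where the log2 ratio was 0.06 (-0.00 to 0.11). In WT that difference also turned, to 0.13, under the thinned gating. Cxcl2 was somewhat lower than in large macrophages in both libraries, at 25.5 and 21.0 CPM (log2 ratio -0.50, -0.89 to -0.17, and -0.57, -1.04 to -0.18).

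In Cd209a cells the neighbouring genes Ccl6 and Ccl9 were the members well above the B cell level in both libraries. Ccl6 was at 1623 CPM in WT and 1898 CPM in Xbp1dIEC, and Ccl9 at 1380 and 1343 CPM. The Ccl9 level was 1.79-fold and 1.96-fold above that of large macrophages of the same library, while Ccl6 was 1.40-fold below in WT and 1.17-fold above in Xbp1dIEC. Ccl24 had 6 UMIs in WT and 28 in Xbp1dIEC, and the WT level of 21.4 CPM was close to the 17.2 CPM of B cells. The B cell level serves as a reference. Whether it comes from free RNA or from barcodes that also hold a macrophage was not tested. In WT the 5% of B cells with most Ccl24 held 64.6% of the Ccl24 UMIs of that gate. Cxcl2, Ccl3, Ccl7 and Cxcl10 had 0 UMIs in both sets of 34 cells, where 3 UMIs would be 10.7 and 10.2 CPM.

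Lymphocytes held every abundant member at a low level. In B cells, Ccl24 was at 17.2 CPM in WT and 16.2 in Xbp1dIEC, Ccl6 at 110 and 107, Ccl9 at 45.6 and 44.3, and Pf4 at 168 and 94.5. These were 1.47% to 6.54% of the level in large macrophages of the same library. T/NK cells had Ccl6 at 231 and 168 CPM, Ccl9 at 118 and 97.8, and Pf4 at 142 and 86.9. Much of the Ccl6 lay in few cells. The 5% of B cells with most Ccl6 held 57.0% of its UMIs in WT and 74.1% in Xbp1dIEC, up to 84 in 1 cell. In T/NK cells these shares were 77.0% and 84.6%. For Pf4 in B cells the shares were 31.7% and 43.1%, and the median cell had 1 Pf4 UMI in WT and 0 in Xbp1dIEC. Such a share depends on the mean level of the gene, so it does not rank Ccl6 and Pf4. The summed Alox15, Prg4, Cd5l, Fn1 and Vsig4 level in B cells was 334 and 269 CPM. T/NK cells held Cd209a and Mgl2 at a summed 69.5 and 160 CPM, against 13.1 and 29.0 CPM in B cells. Folr2, Retnla and Cbr2 summed to 282 and 388 CPM in T/NK cells, against 156 and 186 CPM in B cells. Whether these levels come from free RNA or from barcodes that hold a macrophage or Cd209a cell as well was not tested.

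Between the genotypes, the abundant members of large macrophages differed by less than 1.5-fold. Pf4 was at 7498 CPM in WT and 5611 in Xbp1dIEC (log2 ratio -0.42, -0.43 to -0.41), and Ccl6 at 2269 and 1629 CPM (-0.48, -0.50 to -0.46). Ccl9 was also lower in Xbp1dIEC (-0.17, -0.20 to -0.13), and Ccl24 was higher (0.20, 0.17 to 0.23). A member was counted as past the fold when it differed 1.5-fold or more, among genes with at least 50 UMIs in the gate over both libraries. In large macrophages 6 members had that many UMIs, and 0 were past it, against 0.425% of 10344 genes higher and 2.94% lower. The median log2 ratio was -0.18 over these 6 and -0.06 over all genes. Over 12 settings of gating, filtering and scaling, Ccl6 ranged from -0.50 to -0.42, Pf4 from -0.46 to -0.36 and Ccl24 from 0.18 to 0.26. Class II genes moved with Ccl6 and Pf4 in this gate: the list with Ear2, H2-Ab1, H2-Aa, Cd74, Ccr2 and Flt3 summed to 445 CPM in WT and 279 in Xbp1dIEC. In the 2273 and 2231 cells with under 30 UMIs of H2-Ab1, H2-Aa and Cd74, the ratios were -0.47 for Ccl6 and -0.43 for Pf4. That cut left out only 26 WT and 6 Xbp1dIEC cells, so it could hardly move the ratios.

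The genotype ratios of Ccl24 and Pf4 were not the same in every split of the large macrophages. All such splits use a fixed number of UMIs, and WT large macrophages were deeper (median 9809 against 7935 UMIs). The same cut can therefore pick different cells in each library, and its part in the counts and ratios was not tested. Cells with 3 or more UMIs of Marco, a scavenger receptor, numbered 511 of 2299 in WT and 226 of 2237 in Xbp1dIEC. In them Ccl24 was lower in Xbp1dIEC (-0.14, -0.23 to -0.05) and Pf4 was nearly level (-0.04, -0.06 to -0.01), while in the other 1788 and 2011 cells Ccl24 was higher (0.18) and Pf4 lower (-0.43). Ccl6 was lower on both sides of that split (-0.44 and -0.43). In the 180 and 71 cycling cells the Ccl24 ratio was -0.10 (-0.22 to 0.01), with Pf4 at -0.43 and Ccl6 at -0.51. Cells with 3 or more UMIs of Arg1 (arginase) numbered 1263 and 595, and Pf4 was lower in Xbp1dIEC by a similar ratio among them (-0.27) and among the rest (-0.30). Whether the ratios differ between such cells beyond the spread between mice was not tested.

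Ccl24 differed most among the abundant members in the Folr2/Retnla macrophages. It was at 745 CPM (714 to 777) in WT and 1144 CPM (1101 to 1188) in Xbp1dIEC, 1.53-fold higher (log2 ratio 0.62, 0.54 to 0.70). Of the 5 members with 50 or more UMIs, it was the 1 past the fold upward, against 2.03% of 6596 genes, and 0 were past it downward, against 5.28%. Ccl6 (-0.25), Ccl9 (-0.25), Pf4 (-0.20) and Cxcl2 (-0.27, -0.83 to 0.26) were all lower in Xbp1dIEC by less than the fold. Over 14 settings the Ccl24 ratio stayed between 0.59 and 1.07, whereas the direction of the other abundant members turned, with Ccl6 from -0.41 to 0.17, Ccl9 from -0.33 to 0.01 and Pf4 from -0.36 to 0.73. Cxcl2 ranged from -4.74 to -0.08. The highest Ccl6 value and the lowest Cxcl2 value came from thinning cells to 2000 UMIs before gating, where Cxcl2 had fewer than 50 UMIs. In the 40 WT and 25 Xbp1dIEC cells of this gate with 3 or more UMIs of the cycling list, Ccl24 was at 740 and 755 CPM (0.03, -0.20 to 0.26), and in the other 218 and 244 cells it was at 746 and 1204 CPM (0.69, 0.60 to 0.78).

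**Figure D2:**
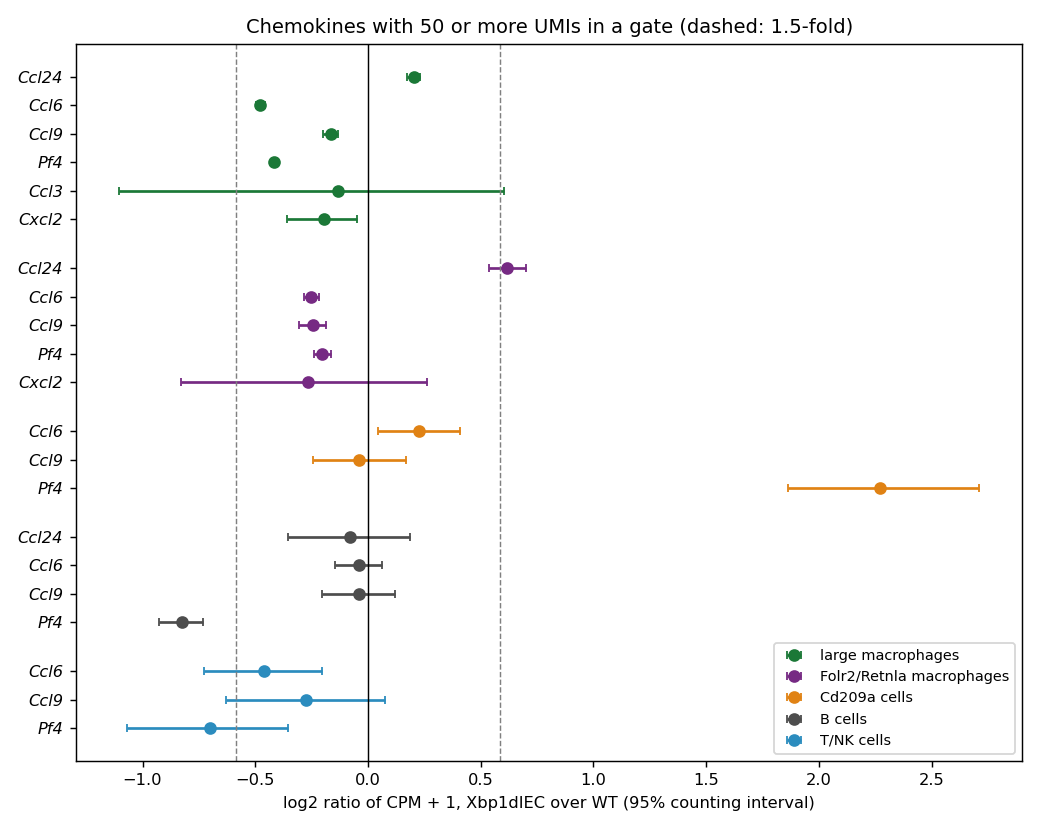
Log2 ratio of CPM + 1, Xbp1dIEC over WT, for each chemokine with 50 or more UMIs in a gate; bars are 95% intervals for counting error, the solid line marks no difference and dashed lines mark 1.5-fold. Points past the dashed lines are Ccl24 in Folr2/Retnla macrophages (0.62), Pf4 in Cd209a cells (2.27), and Pf4 in B cells (-0.82) and T/NK cells (-0.70).

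Pf4 differed in sign between Cd209a cells and the other gates. In Cd209a cells it was at 203 CPM in WT, close to the 168 CPM of B cells, and at 985 CPM in Xbp1dIEC (log2 ratio 2.27, 1.86 to 2.71), the 1 of 3 members past the fold upward, against 4.93% of 1277 genes higher, and 0 were past it downward, against 9.4%. The median cell had 1 Pf4 UMI in both libraries, and the 2 cells with most Pf4 held 65.3% of its UMIs in Xbp1dIEC, up to 126 in 1 cell. The large macrophage list of Alox15, Prg4, Cd5l, Fn1 and Vsig4 was also higher, at 471 and 1357 CPM. Over 11 settings the Pf4 ratio ranged from 0.11 to 3.08. It fell to 1.02 with doublets kept, 1.17 without a minimum for myeloid genes and 0.11 with looser gates. In B cells Pf4 was lower in Xbp1dIEC (-0.82, -0.93 to -0.73), the 1 of 4 members past the fold, against 1.94% of 9708 genes lower, and 0 were past it upward, against 1.98%. In T/NK cells it was the 1 of 3 past it downward (-0.70, -1.07 to -0.36), against 2.46% of 4301 genes, and 0 were past it upward, against 3.16%. Ccl24, Ccl6 and Ccl9 in B cells differed by -0.08, -0.04 and -0.04; of the abundant members in B cells, Pf4 was the 1 that differed past the fold. When cells were thinned to 2000 UMIs before gating, Ccl6 (-0.67) and Ccl9 (-0.64) were past it as well.

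The abundant members were found in most macrophages. To compare shares at 1 depth, each cell was thinned to 2000 UMIs. At least 1 Pf4 UMI remained in 97.5% of WT large macrophages (96.8% to 98.1%) and 92.8% of those of Xbp1dIEC (91.7% to 93.8%), at median depths of 9809 and 7935 UMIs before thinning. B cells, with median depths of 5787 and 6634.5 UMIs, had a Pf4 UMI in 26.5% and 14.8%. Ccl6 was found in 94.0% and 92.0% of large macrophages against 14.1% and 10.0% of B cells. Ccl24 was found in 71.3% (69.4% to 73.2%) and 75.3% (73.5% to 77.1%) against 3.09% and 3.21% of B cells. In Folr2/Retnla macrophages the Ccl24 share was 64.7% (58.6% to 70.6%) in WT and 80.7% (75.4% to 85.2%) in Xbp1dIEC, and without thinning it was 90.7% and 94.8%. In Cd209a cells 0 of 34 WT cells (0% to 10.3%) and 5 of 34 Xbp1dIEC cells kept a Ccl24 UMI at that depth, while 6 and 11 of them had one before thinning.

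Cells of 1 gate still spread over a wide range. In WT large macrophages the 10th percentile, median and 90th percentile of UMIs per cell were 13, 62 and 157.2 for Pf4, 6, 17 and 47 for Ccl6, 1, 7 and 21.2 for Ccl24, and 1, 6 and 16 for Ccl9. In Xbp1dIEC they were 4, 35 and 95 for Pf4 and 4, 11 and 25 for Ccl6. These counts are not thinned, so they hold the spread of depth between cells as well. WT cells were also deeper (median 9809 against 7935 UMIs). As CPM of single cells, the medians were 6843 in WT and 4851 in Xbp1dIEC for Pf4, and 1811 and 1394 for Ccl6. After thinning, the variance over the mean, which is 1 where only counting noise remains, was 6.34 and 7.53 for Pf4, 3.09 and 1.99 for Ccl6, 2.18 and 2.35 for Ccl24 and 1.56 and 1.42 for Ccl9. The 5% of cells with most UMIs of a gene held 15.1% to 20.2% of all UMIs of these 4 genes in large macrophages. Cells high in Ccl24 were high in Ccl6 about as often as the others. Of the WT large macrophages with 3 or more Ccl24 UMIs after thinning 68.6% also had 3 or more of Ccl6, against 66.1% of the rest, and in Xbp1dIEC these shares were 55.7% and 53.2%. Other pairs differed more, in both directions. Cells high in Ccl9 were high in Ccl6 in 71.1% against 65.5% in WT, and 62.0% against 52.4% in Xbp1dIEC. Cells high in Pf4 were high in Ccl9 in 22.2% against 21.6%, and 15.6% against 22.1%. In Folr2/Retnla macrophages, cells high in Ccl6 were high in Ccl9 in 62.3% against 29.6%, and 61.9% against 22.7%.

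**Figure D3:**
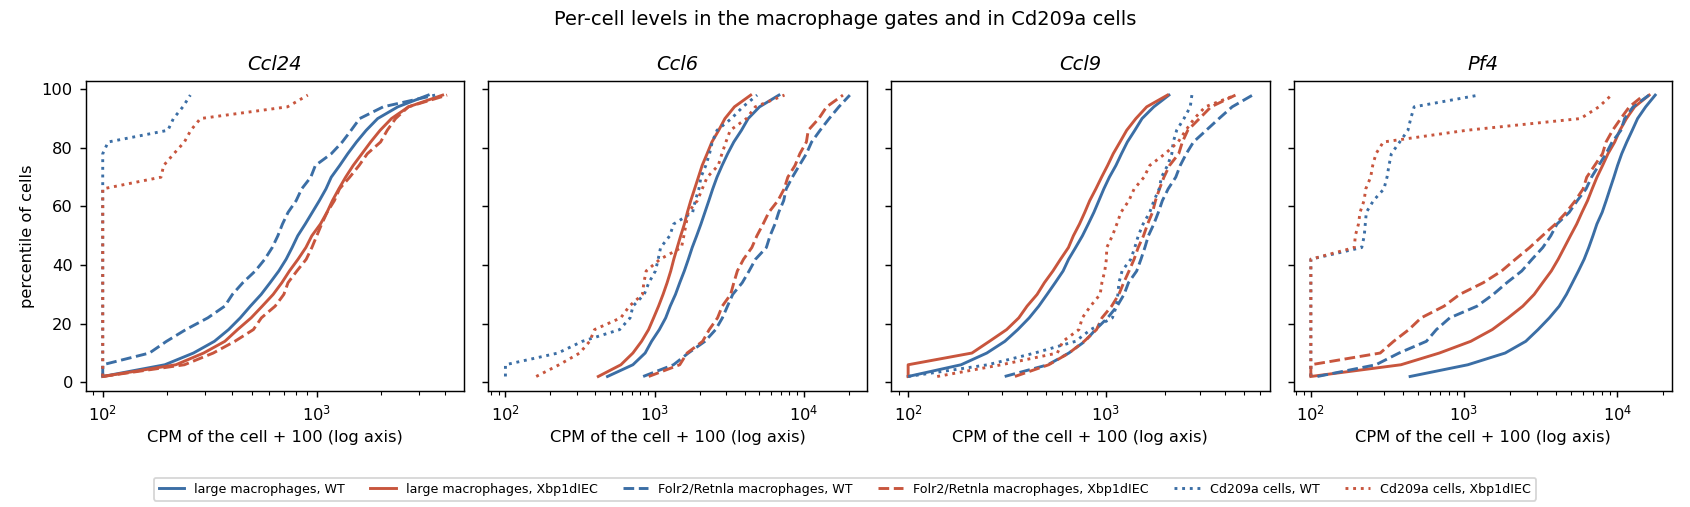
Percentile of cells (vertical) against the CPM of single cells + 100 (log axis) for Ccl24, Ccl6, Ccl9 and Pf4 in large macrophages (solid), Folr2/Retnla macrophages (dashed) and Cd209a cells (dotted), WT in blue and Xbp1dIEC in red. Folr2/Retnla cells lie to the right of large macrophages for Ccl6 and Ccl9, and the Pf4 curve of Xbp1dIEC Cd209a cells leaves that of WT among its highest cells.

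Within the Folr2/Retnla gate, the levels of Pf4 and Ccl6 differed in opposite directions between cells rich and poor in class II. Most cells carried both genes: of the cells with 3 or more Pf4 UMIs after thinning, 159 of 184 in WT (86.4%) and 158 of 175 in Xbp1dIEC (90.3%) also had 3 or more of Ccl6, against 97.3% and 94.7% of the rest. Cells with 30 or more UMIs of H2-Ab1, H2-Aa and Cd74 numbered 81 in WT and 56 in Xbp1dIEC. Their Pf4 level was 1925 and 1687 CPM, against 6328 and 4925 CPM in the other cells of the gate (log2 ratio -1.72, -1.79 to -1.64, and -1.54, -1.65 to -1.44). Ccl6 was higher in the class II cells, at 9138 against 5554 CPM in WT and 6268 against 5470 CPM in Xbp1dIEC, and so was Ccl9, at 2691 against 1465 and 1910 against 1479 CPM. Ccl24 was lower in them, at 580 against 822 and 761 against 1240 CPM. Cells with under 10 Pf4 UMIs per 10000 made up 64 of 258 in WT and 87 of 269 in Xbp1dIEC, with a median of 142.5 and 19 class II UMIs. The splits of this gate were set with the values known.

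**Figure D4:**
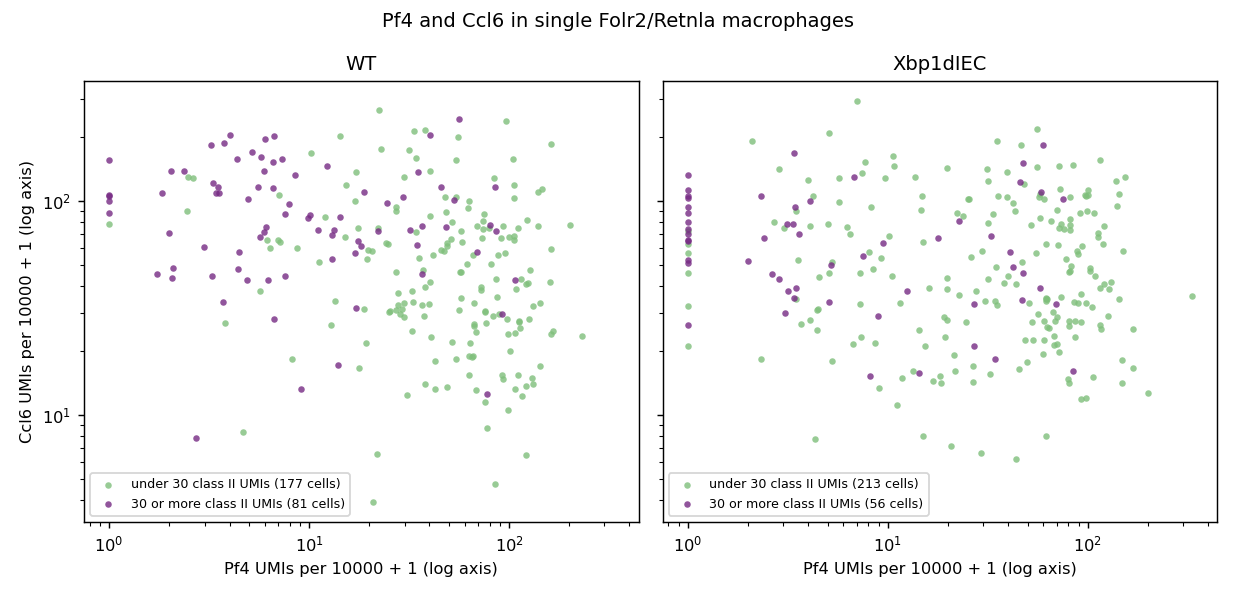
Pf4 against Ccl6 in single Folr2/Retnla macrophages, as UMIs per 10000 UMIs of the cell + 1 on log axes, WT on the left and Xbp1dIEC on the right; purple points are cells with 30 or more class II UMIs (81 and 56) and green points the others (177 and 213). Most purple points lie at low Pf4, and the median Ccl6 level of cells with under 10 Pf4 UMIs per 10000 was 87.6 in WT and 62.4 in Xbp1dIEC.

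The genotype differences in this gate depended on which cells were read. Its splits also use fixed numbers of UMIs, and WT cells of the gate were deeper (median 11011.5 against 8686 UMIs). The class II list with Ear2, Ccr2 and Flt3 summed to 6440 CPM in WT and 3481 in Xbp1dIEC, and the interferon list of 8 genes to 259 and 129 CPM. Of that interferon list 4 genes had 50 or more UMIs, and all 4 were past the fold downward, against 5.28% of 6596 genes. The lower interferon sum was not particular to this gate. It was 169 CPM in WT and 117 in Xbp1dIEC large macrophages, and 136 and 108 CPM in Cd209a cells. B cells had 39.8 and 24.6 CPM, and T/NK cells 92.4 and 55.1 CPM. Among cells with under 30 class II UMIs, Ccl6 was at 5554 and 5470 CPM (-0.02, -0.06 to 0.02) and Ccl9 at 1465 and 1479 CPM (0.01, -0.06 to 0.09), while Ccl24 kept 0.59 (0.50 to 0.68) and Pf4 was lower (-0.36, -0.40 to -0.32). Among those with 30 or more, Ccl6 (-0.54) and Ccl9 (-0.49) were lower in Xbp1dIEC and Ccl24 was higher (0.39, 0.19 to 0.59). The cells with at most 1 UMI of the large macrophage list numbered 58 in WT and 81 in Xbp1dIEC. In them the Ccl24 ratio was 1.07, the Ccl6 ratio -0.41 and the Cxcl2 ratio -2.90, and the Pf4 ratio turned to 0.73. Cxcl2 had fewer than 50 UMIs there, and of 6596 genes 14.4% were past the fold upward and 15% downward.

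Other markers of macrophage state went with the members in both libraries. Large macrophages with 3 or more UMIs of Marco had less Ccl24 than the others (763 against 1015 CPM in WT, 692 against 1148 in Xbp1dIEC), more Pf4 (8854 against 7092, and 8627 against 5259) and more Ccl6 (2736 against 2129, and 2013 against 1585). Those with 3 or more UMIs of Cxcl13, the B cell attractant, had more Pf4 (8689 against 7066, and 6709 against 5143) and less Ccl24 (877 against 985, and 1034 against 1129). Those with 3 or more UMIs of Arg1 had more Pf4 and Ccl6, and they were deeper, with medians of 11040 and 8723 UMIs against 8485 and 7644.5. Cycling large macrophages had nearly the same Pf4 and Ccl6 levels as the rest (log2 ratios of -0.07 and -0.04 in WT, and -0.08 and -0.07 in Xbp1dIEC). In Folr2/Retnla macrophages, in contrast, cycling cells had less Ccl6 (4262 against 7388 CPM in WT, 3727 against 5922 in Xbp1dIEC). A few cells of the large macrophage gate were rich in class II (30 or more UMIs in 26 WT and 6 Xbp1dIEC cells) or in Folr2 (3 or more UMIs in 21 and 7 cells), and there the members differed more. Against the rest, class II cells had less Pf4 (-1.72 and -1.91 on the log2 scale) and more Ccl6 (0.91 and 0.86) and Ccl9 (0.80 and 1.17), and the Ccl24 ratio was -0.80 in WT and 0.18 (-0.15 to 0.49) in Xbp1dIEC. Folr2 cells had more Ccl6 (0.93 and 0.28) and Ccl9 (0.82 and 0.56), and Cxcl2 was at 204 against 34.7 CPM in WT (2.52, 2.12 to 2.96) and at 13.5 against 31.8 CPM in Xbp1dIEC (-1.18, -6.55 to 1.24). A cell enters such a split by its UMIs, so the deeper cells enter it more easily.

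Pf4 is also a platelet gene. Ppbp, Gp9, Itga2b and Gp1bb, which mark platelets and their precursors, summed to 0.26 CPM in WT and 0.17 CPM in Xbp1dIEC large macrophages, against 7498 and 5611 CPM of Pf4. In Cd209a cells all 4 were at 0. A mesothelial list (Msln, Upk3b, Krt19, Lrrn4) was at 0.04 and 0.06 CPM in large macrophages, and S100a8, S100a9, Retnlg and Ly6g at 16.8 and 14.4 CPM, with 3 of the 4 at 0.

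Cxcl2 was concentrated in few large macrophages. It was found in 298 of 2299 WT large macrophages and 175 of 2237 of Xbp1dIEC, and after thinning to 2000 UMIs in 4.74% (3.91% to 5.69%) and 3.53% (2.81% to 4.38%), against 0.29% and 0.10% of B cells. The 5% of large macrophages with most Cxcl2 held 78.3% of its UMIs in WT and 88.9% in Xbp1dIEC, against 15.1% to 20.2% for the 4 abundant members, and the highest cell had 49 and 61 Cxcl2 UMIs. After thinning, its variance over the mean was 2.62 and 5.27, below that of Pf4. The thinned means were 0.080 and 0.075 UMIs for Cxcl2 against 14.8 and 11.2 for Pf4. Both this measure and the share of the top 5% of cells depend on the mean, so they do not rank the spread of these genes. The Cxcl2 levels of 36.5 and 31.7 CPM (log2 ratio -0.20, -0.36 to -0.05) moved to a ratio of -0.78 without the 1% of cells with most Cxcl2, and to -0.53 without the 10% of cells highest in immediate early genes. Cells with 3 or more UMIs of Il1b, Tnf, Il6, Nfkbia, Nfkbiz, Tnfaip3, Ptgs2 and Icam1 had 47.0 against 15.6 CPM in WT and 57.7 against 9.48 CPM in Xbp1dIEC. Those with 12 or more UMIs of immediate early genes such as Fos, Jun and Egr1, which are known to respond to cell handling, had 77.0 against 30.4 and 92.2 against 28.8 CPM. Cycling cells had 13.8 against 39.5 and 12.8 against 32.7 CPM. Whether Cxcl2 was induced in the mouse or during preparation was not tested.

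**Figure D5:**
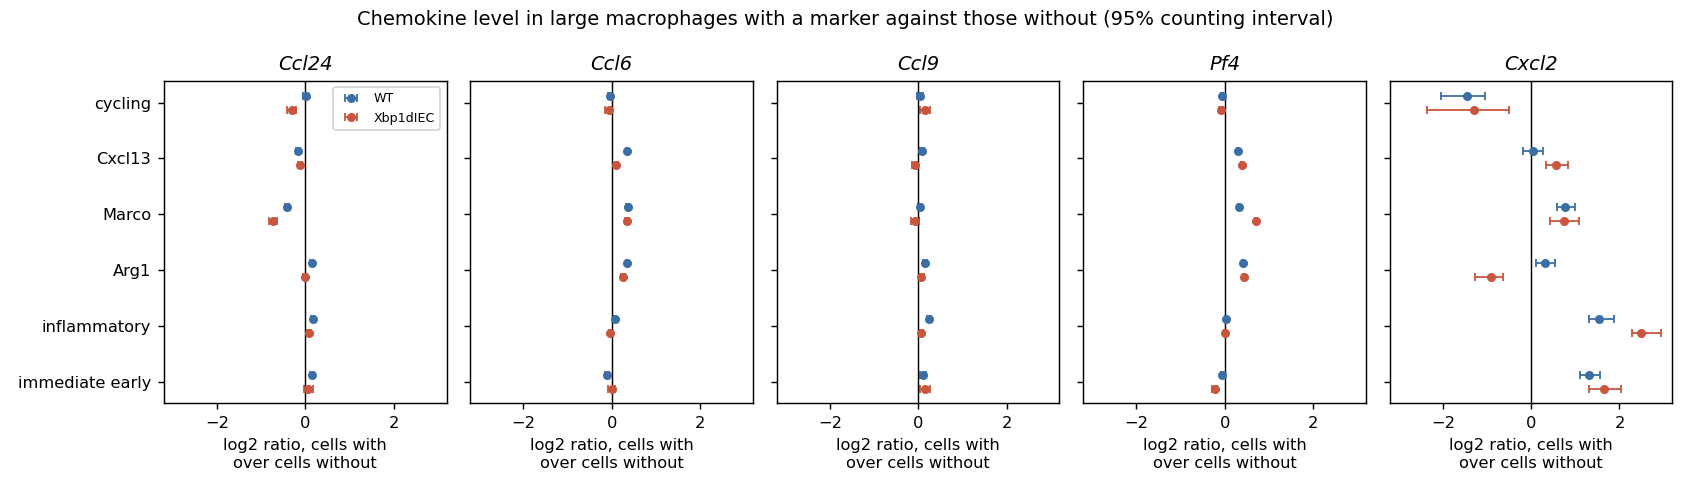
Log2 ratio of the level in large macrophages with a marker over those without it, for Ccl24, Ccl6, Ccl9, Pf4 and Cxcl2, with WT in blue and Xbp1dIEC in red and 95% counting intervals. Cxcl2 lies at 1.54 and 2.49 for the inflammatory list and 1.31 and 1.64 for immediate early genes, while Ccl24, Ccl6, Ccl9 and Pf4 stay within -0.73 and 0.71 for the 6 markers drawn. Splits by class II and Folr2, which hold 6 to 26 cells with the marker, are not drawn and reach larger values.

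The inducible members Ccl2, Ccl7, Ccl3, Ccl4 and Cxcl10 were rare in every gate. Ccl2, which recruits monocytes through Ccr2, had 36 UMIs in 29 of 6058 WT cells and 23 UMIs in 17 of 6113 Xbp1dIEC cells, and its neighbour Ccl7 had 6 and 3 UMIs. Of these Ccl2 UMIs 11 in WT and 3 in Xbp1dIEC fell in the Folr2/Retnla gate (3.84 CPM, 1.92 to 6.86, and 1.26 CPM, 0.26 to 3.68), against 0.39 and 0.45 CPM in large macrophages. Ccl3 and Ccl4, which attract monocytes and T cells, had 67 and 46 and 59 and 64 UMIs. For Ccl4 the 2 highest cells held 51.6% of the Xbp1dIEC UMIs, 1 of them in the T/NK gate with 15 UMIs, so the T/NK level of 4.44 and 18.4 CPM rests on few cells. Cxcl10, an interferon-induced attractant of T cells, had 5 UMIs in each library. Ccl3 in large macrophages, with 32 and 21 UMIs, was the 1 member of this set with enough UMIs for a ratio (-0.13, -1.10 to 0.60), and Ccl4 had 20 and 5 UMIs there. At the Ccl3 level the added 1 CPM draws the ratio towards no difference, while its interval is computed without it.

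Other chemokine genes set the members in context. Of 24 further ligand genes, 4 reached 50 CPM in some gate and 9 had 0 UMIs in all gates. Cxcl13 was at 642 CPM in WT and 1068 CPM in Xbp1dIEC large macrophages (log2 ratio 0.73, 0.70 to 0.77), past the fold that none of the 6 counted members reached there. Ccl5, typical of cytotoxic lymphocytes, was at 4203 and 4700 CPM in T/NK cells, and Xcl1 at 33.3 and 58.5 CPM. Ccl17 had 1 UMI in WT and 32 in Xbp1dIEC Cd209a cells. Among 17 receptor genes 6 reached 50 CPM. Ccr1, the receptor of Ccl6, Ccl9 and Ccl3, was at 155 and 168 CPM in large macrophages and 155 and 173 CPM in Folr2/Retnla macrophages. Ccr2, the receptor of Ccl2 and Ccl7, was at 202 and 165 CPM in Folr2/Retnla macrophages and 674 and 684 CPM in Cd209a cells, against 7.81 and 5.72 CPM in large macrophages. Ccr7 was at 164 and 86.9 CPM in B cells and at 298 and 185 CPM in T/NK cells. Cxcr5 was at 150 and 143 CPM in B cells, and Cxcr3 and Cxcr6 at 71.0 and 61.0 and 49.5 and 57.6 CPM in T/NK cells.

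The genes whose levels followed the members most closely over the 10 points of 5 gates and 2 libraries were, by Pearson's r among 1822 genes, Fn1, Tmcc1 and Timp2 for Ccl24 (0.996, 0.995 and 0.994) and Plxdc2, Ninj1 and Ltc4s for Pf4 (0.996, 0.993 and 0.992). Ccl6 was closest to Dbi, Mrpl33 and Shfm1 (0.988 to 0.986), and Ccl9 to Ifitm3, Tbxas1 and Arpc1b (0.990 to 0.989). The points share libraries and a strong contrast of myeloid cells with lymphocytes, and may share free RNA, so these values are a description.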

How the data were processed

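Peritoneal cavity cells were measured in 2 libraries, WT and Xbp1dIEC, with 56229330 and 49703442 UMIs in 6204 and 6246 barcodes. The deposited matrices hold raw UMI counts per gene and cell, 28692 genes. Per the labels' protocols, 4 mice were pooled per library and 8700 cells encapsulated with a 10x 3′ v2 kit; the genome was mm10 and the tools Cell Ranger 2.2.0 and Seurat 2.3.0, per the submitters' processing notes. How barcodes were chosen before deposit is not given in the sources used here, and the lowest barcode had 2597 UMIs in WT and 2485 in Xbp1dIEC.

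Cells with at least 500 UMIs, 200 genes and under 10% mitochondrial UMIs were kept (6 and 20 left out), and scrublet in scanpy 1.11.5 with an expected 5% removed 140 and 113 doublets (2.26% and 1.81%). A lineage gate needed 3 UMIs of its list (myeloid: Csf1r, Cd68, Adgre1; B: Cd79a, Cd79b, Ms4a1 and a further gene that is not reported here; T/NK: Cd3d, Cd3e, Cd3g, Trbc2, Nkg7) and at most 2 of each other list. Myeloid cells with 2 Cd209a UMIs and more UMIs of Cd209a and Mgl2 than of the large macrophage list were Cd209a cells. The others, with at most 1 Cd209a UMI, needed 2 UMIs of the large macrophage list, or 3 UMIs from at least 2 genes of the Folr2/Retnla list, and went to the list with more UMIs. At these limits the large macrophage gate had 56 and 126 cells with exactly 2 list UMIs, and 81 and 115 myeloid cells with 1 entered no gate; the Cd209a gate rests on 34 cells a library. CPM were computed from the summed counts with exact Poisson intervals, log2 ratios of CPM + 1 with conditional binomial intervals, and shares with Clopper-Pearson intervals (scipy 1.17.1). The log2 ratios and their intervals were tested on simulated Poisson counts, which hold no spread between cells. The other intervals were not tested. Ratio intervals use the counts without the added 1 CPM, so at low CPM a ratio and its interval do not match in full. The 10 members were described in all gates, and further ligands and receptors were named where they reached 50 CPM in any gate. Likeness used genes of at least 100 CPM. The members, lists and gates were chosen with earlier results of these data known. Gene models are GENCODE vM21, whose symbols and identifiers matched those of the count tables for all 10 members.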

Additional observations from a re-analysis of the deposited data

Results flagged for a closer look

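The Pf4 log2 ratio of Xbp1dIEC over WT in Cd209a cells, 2.27, stood out because it has the opposite sign to the ratios in large macrophages (-0.42), Folr2/Retnla macrophages (-0.20), B cells (-0.82) and T/NK cells (-0.70). The difference between the gates was not tested, since each genotype is 1 library. In the 34 Xbp1dIEC Cd209a cells 2 cells held 65.3% of the Pf4 UMIs.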

How the results depend on the processing

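No paired analysis was possible because each genotype has 1 library, and for the same reason no replicate could be left out. Of the counts of members past 1.5-fold, 101 values lay within 1.5 times the original count and 11 did not; of the values of single members 234 stayed inside the counting interval and 121 did not. Beside each shifted count stands the share of all genes that passed the fold the same way under the same setting, over the genes counted originally. Thinning cells to 2000 UMIs before gating gave 1 of 6 members lower in large macrophages (Ccl3, against 13.5% of genes), 1 of 5 in Folr2/Retnla macrophages (Cxcl2, 32.5%), 3 of 4 in B cells (Pf4, Ccl6 and Ccl9, 4.49%) and 2 of 3 in T/NK cells (Pf4 and Ccl6, 7.3%), and Ccl3 and Cxcl2 then had fewer than 50 UMIs. Leaving out cycling cells gave 2 of 3 lower in T/NK cells (2.81%), and leaving out the 10% of cells highest in immediate early genes 1 of 5 lower in Folr2/Retnla macrophages (Cxcl2, 5.79%). Without the 1% of cells with most UMIs of the gene, 1 of 6 was lower in large macrophages (Cxcl2, -0.78, against 6.81% of genes). Stricter gates gave 1 of 3 higher in T/NK cells (Ccl9, 5.21%) and looser gates 0 of 3 higher in Cd209a cells (3.05%). With at most 1 UMI of the large macrophage list, a rule chosen after seeing the data, Folr2/Retnla macrophages had 2 of 5 higher (Ccl24 and Pf4, 14.4%) and 1 lower (Cxcl2, under 50 UMIs, 15%). The cause of these shifts was not tested, apart from the fewer cells: 813 and 648 large macrophages remained after thinning. Stricter gates left 8 and 9 Cd209a cells and thinning 6 and 1, and gates under 10 cells in either library were given no value, a rule set after seeing the data. No called value changed sign under any alternative that gave a value. Ccl2, Ccl7, Ccl4 and Cxcl10 had too few UMIs for a comparison in every gate, and Ccl3 had enough in large macrophages alone, where its ratio ranged from -0.97 to 0.01 over 12 settings.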
